A study of Mus musculus with 48 samples.

Results

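The EGF receptor family and its ligands were followed through 10 of the 42548 genes in a count table of 48 mouse lung RNA libraries. The 10 genes were the ligands Ereg (epiregulin), Areg (amphiregulin), Hbegf (heparin-binding EGF-like growth factor), Tgfa (transforming growth factor alpha), Btc (betacellulin), Egf and Epgn (epigen) and the receptors Egfr, Erbb2 and Erbb3. They were chosen on earlier results from these libraries, in which some of them differed between bleomycin control and saline mice in the epithelium. The values of that contrast are therefore given as a description. No test of a single gene is given there, and nothing is read from the count of calls. Each gene was read by its Ensembl ID, and every one of the 10 had counts.

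The study asked how the lung epithelium responds to bleomycin and how inhibition of IRE1α or of TGFβ alters that response. There were 24 RiboTag mice, with both an epithelial and a whole lung library from every mouse. In the RiboTag system Cre recombinase switches on a ribosomal protein with an HA tag, and an anti-HA antibody then recovers the RNA on tagged ribosomes. The 4 arms were 6 saline mice on a control treatment, 9 bleomycin mice on a control treatment, 5 bleomycin mice given KIRA8 (a kinase inhibitor of IRE1α) and 4 bleomycin mice given 3G9 (an antibody to the integrin αvβ6, which activates TGFβ). The control treatment was Vehicle in batches S061 and S135 and Axum8 in batch S151, so the kind of control and the batch cannot be told apart. No saline mouse was in batch S061, which had 3 KIRA8 mice beside 3 bleomycin controls. Of the batch S135 mice, 2 received KIRA8, 2 were bleomycin controls and 3 were saline mice. Of the batch S151 mice, 4 received 3G9, 4 were bleomycin controls and 3 were saline mice. Both sexes were present in every arm. The mouse strain and age, the Cre driver, the bleomycin dose and route, and the time of collection are not stated in the labels. The labels give both kinds of library the same anti-HA precipitation, so a difference between compartments may include a difference in preparation.

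EGF family ligands are made as precursors in the cell membrane and are released by proteases to act on the same or neighbouring cells. Areg, Tgfa, Egf and Epgn bind Egfr, and Ereg, Hbegf and Btc can bind Egfr and also Erbb4. Erbb2 has no known soluble ligand and serves as a partner for the other receptors, while Erbb3 binds neuregulins, has little kinase activity of its own and signals through its partners. In the lung, the family is known for its part in epithelial repair after injury. Bleomycin is a DNA-damaging drug that is used in mice to produce epithelial injury followed by fibrosis.

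Of the 7 ligand genes, 4 lie side by side on chromosome 5 (RefSeq annotation, GRCm38.p6). Epgn spans 91027517 to 91035212, Ereg 91074617 to 91093649, Areg 91139599 to 91148432 and Btc 91357261 to 91402994. The cluster covers 375.478 kb, with gaps of 39.404 kb between Epgn and Ereg, 45.949 kb between Ereg and Areg and 208.828 kb between Areg and Btc. The other genes are on chromosomes 3 (Egf), 6 (Tgfa), 10 (Erbb3), 11 (Egfr and Erbb2) and 18 (Hbegf). The RefSeq promoter table held entries for 7 of the 10 genes. It held none for Ereg, Hbegf and Erbb3, so the promoters of these genes were not searched for motifs. The 250 bases before the start site are shown for 3 genes of the cluster, because these neighbours had unlike log2 differences between bleomycin and saline mice. They are chr5:91027267-91027516 on the plus strand for Epgn, chr5:91139349-91139598 on the plus strand for Areg and chr5:91402995-91403244 on the minus strand for Btc. Capitals mark the cAMP response element TGACGTCA.
Epgn: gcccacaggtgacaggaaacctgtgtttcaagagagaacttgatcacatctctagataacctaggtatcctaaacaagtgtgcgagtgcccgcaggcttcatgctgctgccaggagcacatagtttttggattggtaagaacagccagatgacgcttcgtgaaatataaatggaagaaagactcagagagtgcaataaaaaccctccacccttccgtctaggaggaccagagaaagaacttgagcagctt
Areg: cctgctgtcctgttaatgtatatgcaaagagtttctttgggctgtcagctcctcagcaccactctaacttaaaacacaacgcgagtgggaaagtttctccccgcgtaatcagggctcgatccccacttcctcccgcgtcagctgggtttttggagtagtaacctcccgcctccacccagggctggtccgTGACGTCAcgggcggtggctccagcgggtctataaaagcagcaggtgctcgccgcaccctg
Btc: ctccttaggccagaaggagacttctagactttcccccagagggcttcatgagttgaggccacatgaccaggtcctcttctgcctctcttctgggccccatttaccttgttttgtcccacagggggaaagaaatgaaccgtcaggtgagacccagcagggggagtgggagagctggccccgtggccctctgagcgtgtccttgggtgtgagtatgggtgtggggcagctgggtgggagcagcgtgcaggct
The Areg promoter held TGACGTCA once, its first base 61 bases before the start site. Of 32851 promoters of the same length, 1.5464% held these letters. The AP-1 motif TGANTCA (in 6.7487% of promoters) and TGACGTGG, a motif of the unfolded protein response (in 0.5631%), were found on neither strand in the 8 promoters of the 7 genes. A match to these letters is a description of the sequence and does not show that a factor binds there.

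Library totals ran from 7163613 to 51797377 counts and were lowest in batch S135 (7163613 to 20468041). A set of 146 genes with at least 50 CPM in each S061 library and a median under 0.5 CPM elsewhere made up 6.01% to 12.7% of the epithelial S061 libraries and at most 0.0529% of the other epithelial ones. In whole lung the share was 7.21% to 9.81% in S061, and mouse 149 of batch S135 held 0.846%. Levels are given as CPM, counts relative to the library total scaled by TMM, a method that balances the bulk of genes between libraries. The TMM factor averaged 0.700 ± 0.0517 (SD, n = 6) in saline epithelium, 0.894 ± 0.0936 (n = 9) in bleomycin control epithelium and 0.730 ± 0.0418 (n = 5) in KIRA8 epithelium, against 1.24 ± 0.194 (n = 6) in saline and 1.27 ± 0.255 (n = 9) in bleomycin control whole lung. With plain library totals, the median log2 difference over all tested genes moved by 0.37 for bleomycin in the epithelium and by 0.11 in whole lung. It moved by -0.23 for KIRA8 in the epithelium, and by -0.77 in saline mice and -0.49 in bleomycin control mice for epithelium against whole lung. Where this changes the direction or the call of a gene, both values are given. Because the libraries read transcript ends and gene lengths were not used, levels are compared within a gene and not between genes. The labelled compartments could not be checked against cell type markers, since the table's gene IDs are not paired with symbols in the sources used here. Fewer cells of a type and less RNA per cell cannot be told apart in these bulk libraries.

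Ereg (ENSMUSG00000029377) encodes epiregulin, a ligand with low resting expression in many tissues. In the epithelium of saline mice it was listed at 0 in 5 of 6 libraries and at 0.167 CPM (2 counts) in mouse 152. The bleomycin control libraries held 9.88, 16.4 and 9.52 CPM in batch S061, 5.66 and 1.14 in batch S135 and 6.95, 3.11, 1.97 and 6.59 in batch S151. Every bleomycin control library was therefore above every saline library, and the arms did not overlap. Summed over the batches with saline mice, bleomycin control mice had 648 Ereg counts and saline mice 2, a ratio of 221 per total (95% interval 60.8 to 1826, exact binomial, counting error only). Within batch S135 the ratio was 53.8 (14.4 to 452). Both ratios rest on the 2 counts of mouse 152, without which saline epithelium had no Ereg count. In batch S151 the saline libraries had no Ereg count. With that group set to a floor of 3 counts in all, bleomycin control mice were 102-fold higher. The lower 95% bound of the ratio against 0 counts was 82.7 (exact binomial, counting error only).

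Whole lung gave the same order of the arms. The saline libraries ran from 0.0781 to 0.934 CPM with a median of 0.116 (n = 6), and the bleomycin control libraries from 1.43 to 16.3 CPM with a median of 6.70 (n = 9). The lowest bleomycin control library was above the highest saline library, the mouse 153 library of batch S135. Ereg rose by a log2 fold change of 4.33 ± 0.66 (SE) in whole lung (edgeR quasi-likelihood test, adjusted p = 0.00036). The difference of mean log2 CPM was 3.37 within batch S135 and 4.69 within batch S151. The whole lung and epithelial libraries came from the same mice, so the whole lung test is a second measurement of these animals and not of others.

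Areg (ENSMUSG00000029378) encodes amphiregulin, an Egfr ligand. In the epithelium its saline libraries held 34.7, 35.3 and 28.6 CPM in batch S135 and 11.2, 13.6 and 13.6 in batch S151. The bleomycin control libraries held 138, 195 and 131 CPM in batch S061, 143 and 45.9 in batch S135 and 62.4, 59.9, 49.3 and 51.3 in batch S151. The arms did not overlap, and the mean of the bleomycin control libraries was 2.88 times the saline mean in batch S135 and 4.36 times in batch S151. Across batches the fitted log2 difference was 1.85 ± 0.25 (SE).

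In whole lung, Areg ran from 2.84 to 11.0 CPM in saline mice (median 8.03, n = 6) and from 10.1 to 32.1 in bleomycin control mice (median 17.8, n = 9). The arms did not overlap within either batch, although the lowest bleomycin control library of batch S151 lay below the highest saline library of batch S135. Areg rose by a log2 fold change of 1.23 ± 0.34 (edgeR adjusted p = 0.027). This call was lost without saline mouse 207 (1.02, adjusted p = 0.0719), saline mouse 230 (1.11, adjusted p = 0.0663) or bleomycin control mouse 148 (1.21, adjusted p = 0.0601), and without the low-count filter (adjusted p = 0.0563).

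Hbegf (ENSMUSG00000024486) encodes a ligand that binds heparin as well as its receptors. Its epithelial saline libraries held 204, 220 and 213 CPM in batch S135 and 41.4, 46.2 and 70.7 in batch S151. The bleomycin control libraries held 361, 434 and 281 CPM in batch S061, 405 and 351 in batch S135 and 155, 90.5, 95.1 and 186 in batch S151. Saline and bleomycin control mice did not overlap within either batch. The level also differed between batches, with a bleomycin control mean of 378 CPM in batch S135 and 132 in batch S151. The fitted log2 difference was 1.17 ± 0.17 in the epithelium. In whole lung the saline libraries ran from 22.5 to 82.0 CPM (median 51.3, n = 6) and the bleomycin control libraries from 54.1 to 135.4 (median 86.8, n = 9), with no overlap within a batch. Hbegf rose by 1.04 ± 0.14 (SE) on the log2 scale in whole lung (edgeR adjusted p = 0.000108).

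**Figure D1:**
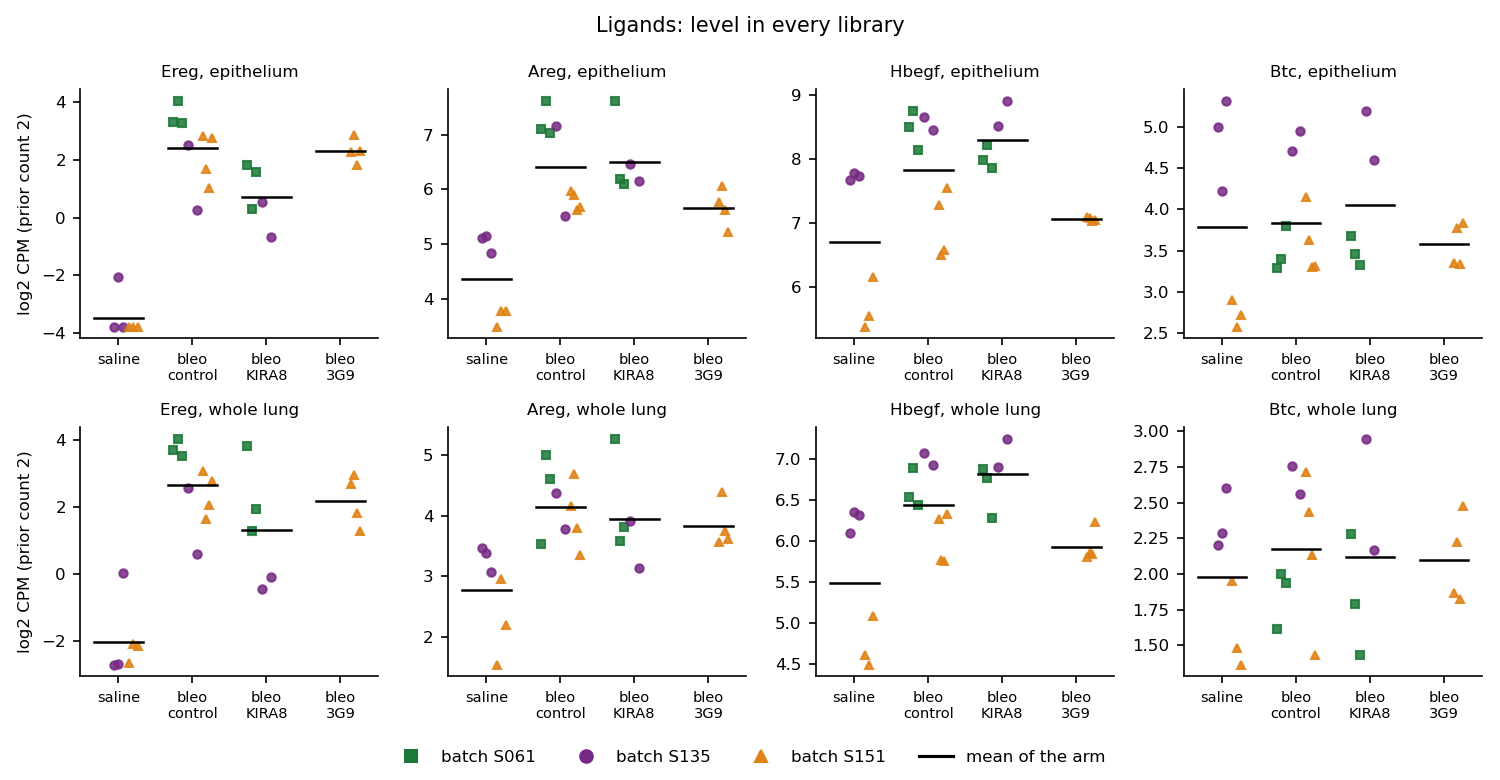
Level of Ereg, Areg, Hbegf and Btc in every library as log2 CPM (prior count 2; y axes differ between panels), epithelium above and whole lung below, by arm; symbols give the batch and the bar is the mean of the arm. Ereg, Areg and Hbegf of bleomycin control mice lie above those of saline mice of the same batch in both compartments, and in epithelium the 5 KIRA8 libraries of Ereg lie at 3.42 CPM or less.

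Epgn (ENSMUSG00000035020), the neighbour of Ereg, was close to the detection limit. No saline epithelial library had a count. Bleomycin control epithelium had 12, 8 and 24 counts in batch S061, 0 and 0 in batch S135 and 15, 7, 8 and 8 in batch S151. In S151 the sum of 38 counts against 0 puts it 6.78-fold higher when the saline group is set to the same floor. The lower 95% bound of that ratio against 0 counts was 5.25 (exact binomial, counting error only). The epithelium of batch S135 held no Epgn count in either arm. For its bleomycin control group 0 counts allow a level of up to 0.129 CPM, counting error only, which is under the 0.325 CPM of the pooled S151 bleomycin control libraries. In whole lung Epgn had 35 counts in 6 bleomycin control mice and 7 in 6 saline mice of the same batches, and its log2 difference of 1.80 ± 0.84 did not pass the test (edgeR adjusted p = 0.177).

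Btc (ENSMUSG00000082361), at the far end of the same cluster, differed between the batches. Its epithelial saline libraries held 31.8, 18.6 and 39.9 CPM in batch S135 and 7.37, 5.89 and 6.52 in batch S151. The bleomycin control libraries held 26.1 and 30.9 CPM in batch S135 and 17.7, 12.3, 9.76 and 9.83 in batch S151. The arms overlapped in batch S135 and not in batch S151, where the bleomycin control mean was 1.88 times the saline mean. The fitted log2 difference was 0.44 ± 0.21 in the epithelium and 0.82 ± 0.24 with plain library totals. In whole lung Btc differed by 0.46 ± 0.22 and did not pass the test (edgeR adjusted p = 0.181).

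Tgfa (ENSMUSG00000029999), a ligand that acts largely through Egfr, and Egf (ENSMUSG00000028017) itself had no call in whole lung. Epithelial Tgfa ran from 6.86 to 10.1 CPM in saline and from 11.7 to 12 in bleomycin control mice of batch S135, and from 39.0 to 52.3 and from 28.7 to 40.6 in batch S151. With TMM the order of the arm means was thus opposite in the 2 batches, though the arms overlapped in batch S151. With plain totals the saline mean of batch S151 was not above its bleomycin control mean. The fitted log2 difference was -0.12 ± 0.16 with TMM and 0.26 ± 0.17 with plain totals. In whole lung it was -0.26 ± 0.17 (edgeR adjusted p = 0.352). Egf had 0 to 23 counts in the epithelial libraries of all arms and 0 to 52 in the whole lung ones, and its whole lung difference of 0.32 ± 0.68 (edgeR adjusted p = 0.824) left a wide interval of -1.01 to 1.64.

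The receptors did not follow Ereg, Areg and Hbegf upward in the epithelium. Erbb3 (ENSMUSG00000018166) held 49.0, 37.0 and 33.1 CPM in saline and 32.4 and 31.4 in bleomycin control epithelium of batch S135, and 71.7, 78.3 and 86.4 against 64.7, 41.8, 46.1 and 64.0 in batch S151. With TMM every bleomycin control library was below every saline library of its batch, and with plain totals the arms overlapped in both batches. The fitted log2 difference was -0.51 ± 0.13 with TMM and -0.14 ± 0.16 with plain totals, so its size and the separation of the arms rested on the scaling.

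Erbb2 (ENSMUSG00000062312), the partner receptor, held 29.1, 26.7 and 37.6 CPM in saline and 14.6 and 19.0 in bleomycin control epithelium of batch S135, and 106, 106 and 73.3 against 68.2, 105, 63.1 and 59.8 in batch S151. The arms were apart in batch S135 and overlapped in batch S151. The fitted log2 difference was -0.57 ± 0.15 with TMM and -0.20 ± 0.16 with plain totals. Erbb2 also varied with batch more than any other of the 8 well-counted genes in bleomycin control mice, from 12.6 CPM in batch S061 to 74.1 in batch S151 in the epithelium and from 5.14 to 42.1 in whole lung.

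Egfr (ENSMUSG00000020122), the receptor of all 7 ligands, held 18.8, 28.6 and 34.3 CPM in saline and 12.8 and 18.5 in bleomycin control epithelium of batch S135, and 10.6, 8.31 and 15.1 against 12.3, 7.36, 9.94 and 12.5 in batch S151. With TMM the arms did not overlap in batch S135 and overlapped in batch S151, and with plain totals they overlapped in both. The fitted log2 difference was -0.53 ± 0.20 with TMM and -0.16 ± 0.22 with plain totals. In whole lung the signs were the other way: Egfr was 17.0, 19.6 and 17.3 CPM in saline and 23.6 and 46.8 in bleomycin control mice of batch S135, with overlap in batch S151.

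None of the 3 receptors passed the test in whole lung. Egfr differed by 0.33 ± 0.20 (edgeR adjusted p = 0.307), Erbb2 by -0.13 ± 0.14 (adjusted p = 0.613) and Erbb3 by -0.35 ± 0.13 (adjusted p = 0.0816) on the log2 scale. Egfr passed it without saline mouse 230 (0.56, adjusted p = 0.0431), and Erbb3 without bleomycin control mouse 149 (-0.45, adjusted p = 0.0224) and in DESeq2 (adjusted p = 0.042). The mouse 149 library, which had the highest whole lung Egfr level, held 0.846% of its counts in the 146 batch-limited genes. Egfr ran from 26.5 to 49.6 CPM in S061 epithelium and from 7.36 to 34.3 CPM in the epithelium of the other batches. The Egfr fold changes were not refitted without those genes.

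**Figure D2:**
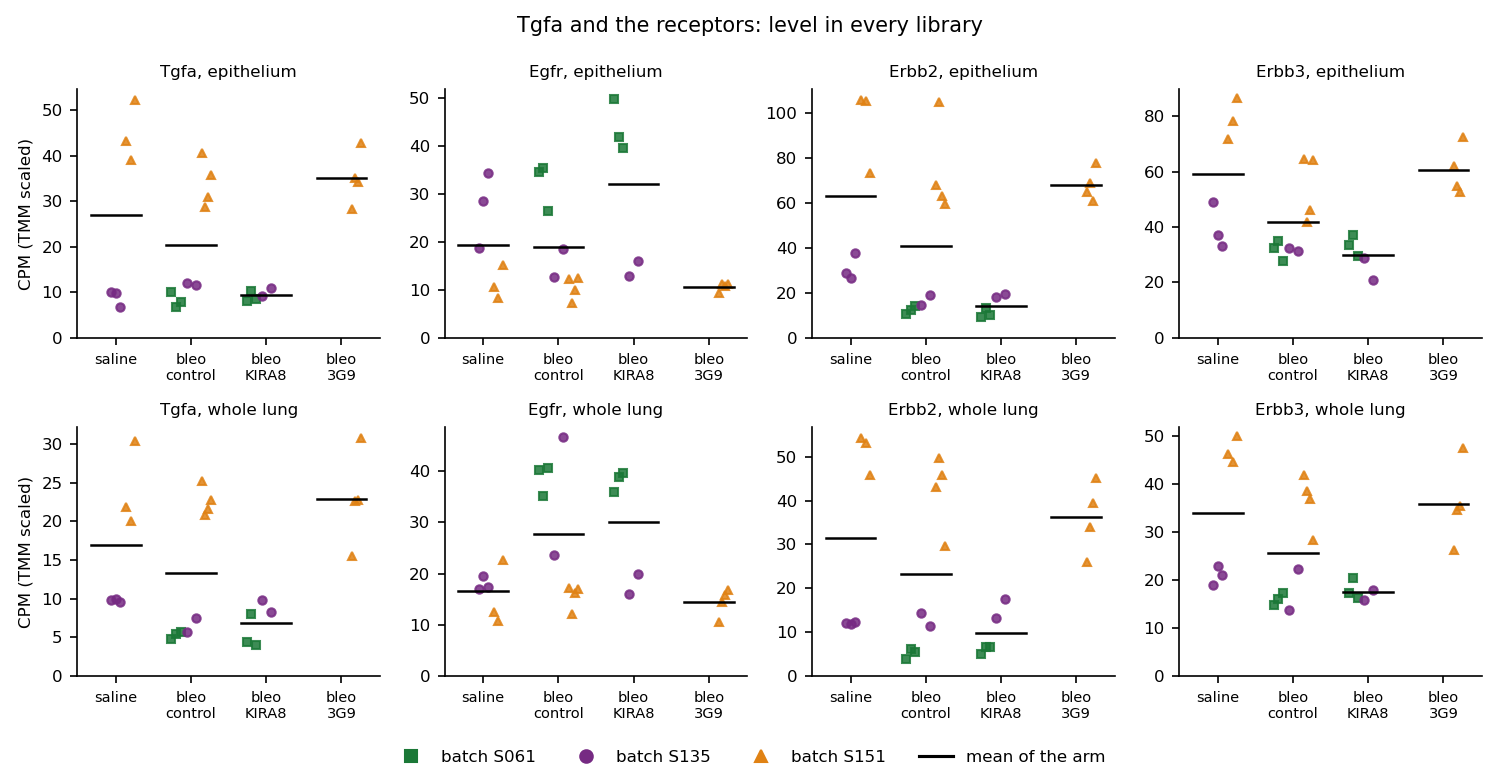
Level of Tgfa, Egfr, Erbb2 and Erbb3 in every library in CPM (TMM scaled, y axes start at 0 and differ between panels), epithelium above and whole lung below, by arm; symbols give the batch and the bar is the mean of the arm. Levels differ by batch: Erbb2 of bleomycin control epithelium averages 12.6 CPM in batch S061 and 74.1 in batch S151, and Egfr runs the other way.

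Counted together in the epithelium, 6 of the 10 genes were called in the fit across all genes (edgeR adjusted p under 0.05). Of these, 4 were higher and 2 lower, where 8.72% of the 17291 tested genes were called, 4.55% higher and 4.17% lower. This contrast proposed the genes, so nothing is read from that count. With plain library totals 5 of the 10 were called higher and none lower, where 20.3% of all genes were called higher. The scaling moved the whole transcriptome in the same way: with TMM 787 genes were higher and 721 lower (52.2% of calls higher), and with plain totals 3505 were higher and 117 lower (96.8%). In whole lung 3 of the 10 were called, Ereg, Areg and Hbegf, all higher, where 10.1% of 19345 genes were called and 6.01% were called higher. The same 3 were called with plain totals, with which the share of higher calls over all genes went from 59.2% to 84.5%. The median log2 difference of the 10 genes was 0.16 in the epithelium and 0.39 in whole lung, beside -0.0016 and -0.01 over all tested genes. The genes were chosen on epithelial libraries of the same mice. Nothing about the 10 genes as a set is therefore read from the whole lung count or from these medians.

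**Figure D3:**
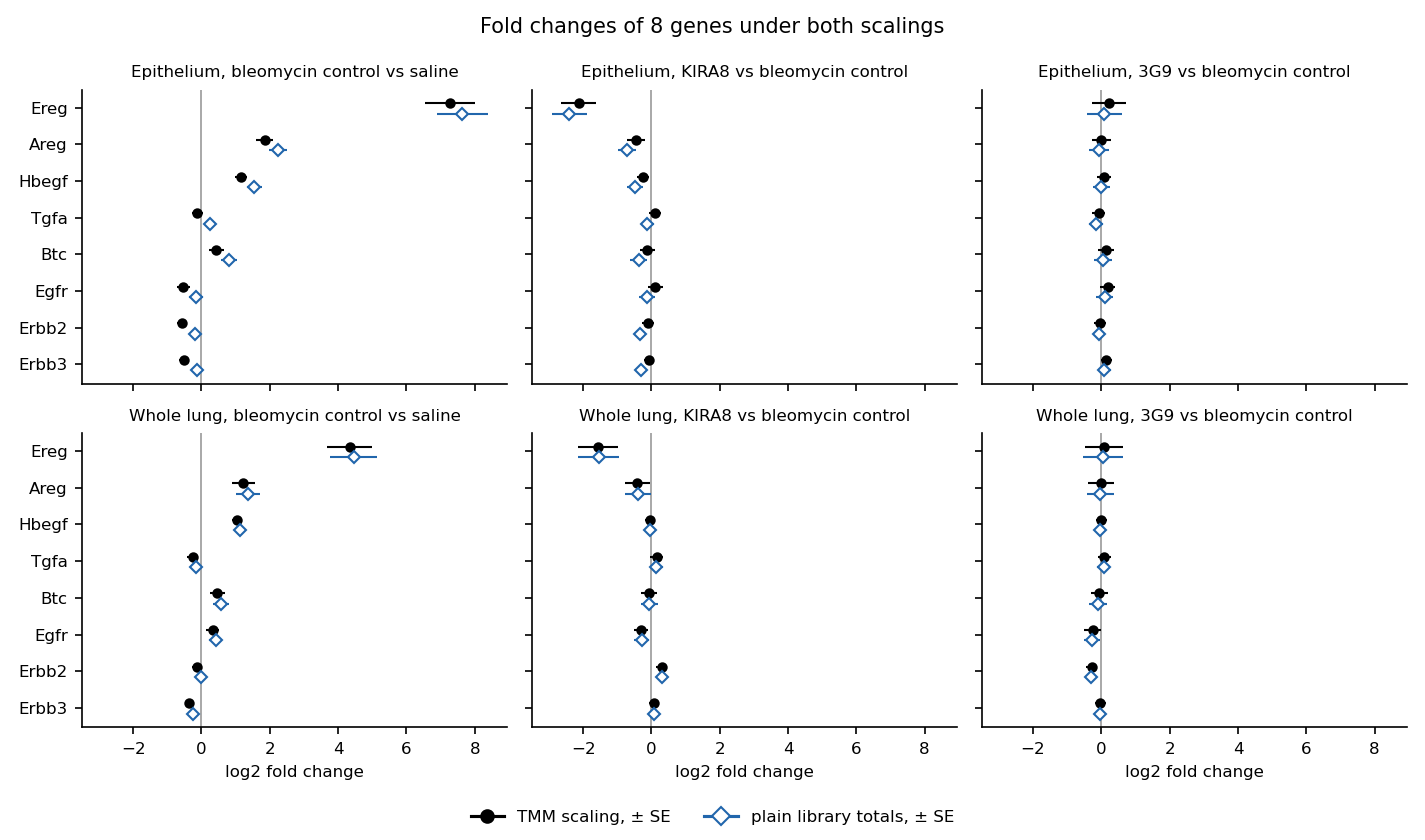
Log2 fold change ± SE of 8 of the 10 genes for bleomycin control against saline, KIRA8 against bleomycin control and 3G9 against bleomycin control, in epithelium (top) and whole lung (bottom); circles use TMM scaling and open diamonds plain library totals, and Egf and Epgn are left out for low counts. Plain totals move every gene of the epithelial bleomycin panel to the right, which brings the receptors near 0 (Erbb3 from -0.51 to -0.14) and leaves Ereg, Areg and Hbegf well above it.

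KIRA8 and 3G9 mice were compared with the same bleomycin control libraries that enter the bleomycin contrast, so these comparisons are not independent of it, and each gene's values are given side by side. Ereg was the gene with the largest difference under KIRA8. In batch S061 epithelium the KIRA8 libraries held 3.42, 1.16 and 2.91 CPM against 9.88, 16.4 and 9.52 in bleomycin control mice, with no overlap and a control mean 4.79 times the KIRA8 mean. In batch S135 they held 1.40 and 0.560 CPM against 5.66 and 1.14, and the groups overlapped. Those 2 KIRA8 libraries had only 18 Ereg counts in all. The fitted log2 fold change was -2.14 ± 0.50 with a 95% interval of -3.12 to -1.15, and it did not pass the test (edgeR adjusted p = 0.0778). It passed in DESeq2 (-2.17, adjusted p = 0.00397), with plain totals (-2.40, edgeR adjusted p = 0.0305), without the low-count filter (-2.22, adjusted p = 0.0319), and without bleomycin control mouse 149 (-2.38, adjusted p = 0.0186) or 206 (-2.13, adjusted p = 0.0491). Over the other alternatives the adjusted p reached 0.507, without batch S061. In that batch the 146 batch-limited genes took 10.8% ± 1.76 (SD, n = 3) of the KIRA8 and 7.72% ± 1.48 (n = 3) of the bleomycin control epithelial counts, and the fold change was not refitted without them.

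In whole lung Ereg held 14.1, 2.37 and 3.77 CPM in KIRA8 mice of batch S061 against 13.0, 16.3 and 11.3 in bleomycin control mice, and 0.660 and 0.853 against 5.80 and 1.43 in batch S135. The groups overlapped in batch S061 through mouse 20 and did not overlap in batch S135, where the 2 KIRA8 libraries had 21 Ereg counts in all. The log2 fold change of -1.56 ± 0.57 did not pass the test (edgeR adjusted p = 0.19). Without mouse 20 it was -2.38 (adjusted p = 0.0384), and DESeq2 gave -1.72 (adjusted p = 0.0348).

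Areg under KIRA8 held 197, 72.8 and 68.8 CPM in batch S061 epithelium against 138, 195 and 131, and 88.7 and 71.3 against 143 and 45.9 in batch S135. The groups overlapped in both batches, again through mouse 20 in batch S061. The log2 fold change was -0.45 ± 0.26 in the epithelium (edgeR adjusted p = 0.531) and -0.41 ± 0.36 in whole lung (adjusted p = 0.62). Hbegf held 254, 299 and 232 CPM against 361, 434 and 281 in batch S061 epithelium, and 366 and 483 against 405 and 351 in batch S135. Its log2 fold change was -0.25 ± 0.18 in the epithelium (edgeR adjusted p = 0.637) and -0.04 ± 0.15 in whole lung (adjusted p = 0.943).

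Among the receptors, Egfr of batch S061 epithelium held 49.6, 41.9 and 39.5 CPM in KIRA8 mice and 34.5, 35.3 and 26.5 in bleomycin control mice. These groups did not overlap with TMM and overlapped with plain totals. In batch S135 Egfr held 12.9 and 16 against 12.8 and 18.5, with overlap. Across batches the log2 fold change was 0.12 ± 0.22 in the epithelium (edgeR adjusted p = 0.894), turned to -0.12 with plain totals, and was -0.31 ± 0.21 in whole lung (adjusted p = 0.514). In whole lung of batch S135 the KIRA8 libraries at 16 and 20.0 CPM were below the bleomycin control libraries at 23.6 and 46.8. Erbb2 differed by -0.11 ± 0.17 in the epithelium (adjusted p = 0.87) and by 0.31 ± 0.16 in whole lung (adjusted p = 0.362), and Erbb3 by -0.07 ± 0.15 (adjusted p = 0.914) and 0.07 ± 0.14 (adjusted p = 0.856). Tgfa (0.10 ± 0.18) and Btc (-0.12 ± 0.23) did not pass the test in the epithelium either, nor did they in whole lung (0.15 ± 0.19 and -0.07 ± 0.23).

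By edgeR, 0 of the 10 genes were called under KIRA8 in either compartment, where 0.26% of tested genes were called in the epithelium and 0.527% in whole lung. A missing call does not show that a gene was unchanged. At an unadjusted p under 0.05 there was 1 gene in each compartment, Ereg both times. DESeq2 called 1, Ereg, in each compartment, where it called 0.891% of genes lower in the epithelium and 1.45% in whole lung. Plain totals called Ereg in the epithelium, where 0.914% of genes were called lower. The median log2 difference of the 10 genes was -0.19 in the epithelium and 0.02 in whole lung, beside 0.02 and -0.01 over all tested genes. These medians of the 10 genes include Egf and Epgn, which had few counts. With plain totals the median over all tested genes was -0.21 in the epithelium and -0.005 in whole lung.

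All 4 3G9 mice were in batch S151, with 4 bleomycin control mice beside them. The fold changes come from the fit over all arms and batches, in which bleomycin control mice of the other batches also enter, so the difference of mean log2 CPM within batch S151 is given too. Ereg held 4.72, 7.20, 3.48 and 4.90 CPM in 3G9 epithelium against 6.95, 3.11, 1.97 and 6.59 in bleomycin control epithelium. In whole lung it held 6.28, 7.68, 3.42 and 2.35 against 8.31, 3.01, 4.07 and 6.70. The groups overlapped in both compartments. The log2 fold change was 0.22 ± 0.50 in the epithelium, with a 95% interval of -0.76 to 1.2, and 0.07 ± 0.55 in whole lung, with an interval of -1.02 to 1.16 (edgeR adjusted p = 1 in both). Within batch S151 the difference was 0.25 in the epithelium and -0.20 in whole lung, so the sign in whole lung turned. The intervals hold differences of over 1 on the log2 scale, so the data do not show that 3G9 leaves Ereg as it was.

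Areg held 54.4, 66.5, 49.4 and 37.4 CPM in 3G9 epithelium against 62.4, 59.9, 49.3 and 51.3, a log2 fold change of 0.003 ± 0.27 with an interval of -0.54 to 0.54, and -0.12 within batch S151. Hbegf held 137, 136, 130 and 132 CPM against 155, 90.5, 95.1 and 186. Its 4 3G9 libraries lay closer together (SD 3.05, n = 4) than the bleomycin control ones around nearly the same mean, and the log2 fold change was 0.08 ± 0.20, and 0.09 within batch S151. Egfr held 9.28, 11.3, 10.8 and 11.3 CPM against 12.3, 7.36, 9.94 and 12.5, also with overlap. By edgeR, 0 of the 10 genes passed the test under 3G9 in either compartment, and 0 had an unadjusted p under 0.05. Over all genes edgeR called 0% in the epithelium (566 genes at an unadjusted p under 0.05, and 36 called by DESeq2) and 0.196% in whole lung. DESeq2 called 0 of the 10 in both compartments. Egf and Epgn had too few counts under KIRA8 and 3G9 for a fold change to be given.

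Epithelium was compared with whole lung within mice. Areg, Btc and Hbegf were the ligands with the higher epithelial levels, and the scaling decides how many genes can be placed. In saline mice Areg was higher in epithelium than in whole lung by 1.54 ± 0.19 on the log2 scale with TMM (edgeR adjusted p = 3.39e-05, 6 of 6 mice) and by 0.78 ± 0.22 with plain totals (adjusted p = 0.00867, 5 of 6 mice). Btc was higher by 1.77 ± 0.27 (edgeR adjusted p = 0.000181, 6 of 6 mice) and with plain totals by 1.0 ± 0.36 (adjusted p = 0.0276). Hbegf was higher by 1.16 ± 0.12 with TMM (edgeR adjusted p = 7.24e-06), and its 0.40 ± 0.18 with plain totals did not pass (adjusted p = 0.0745). Erbb2 and Erbb3 were higher by 1.06 ± 0.13 and 0.77 ± 0.13 with TMM (edgeR adjusted p = 3.69e-05 and 0.000353) and were not called with plain totals, where Erbb2 differed by 0.29 and Erbb3 was level. Egfr went from 0.02 ± 0.20 with TMM to -0.74 ± 0.27 with plain totals, where it was called lower (edgeR adjusted p = 0.0283).

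Of the 7 genes tested in saline mice, 5 were called higher in epithelium with TMM and none lower, where 57.5% of 14885 genes were called and 27.3% were higher. With plain totals 2 were higher and 1 lower, where 7.73% of genes were higher and 55.4% lower. Ereg, Egf and Epgn did not pass the low-count filter of that fit. With 57.5% of all tested genes called with TMM, these counts are given as a description, and nothing is read from them about the 7 genes.

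Bleomycin control mice gave a like picture with Ereg now measurable. Areg was higher in epithelium by 2.26 ± 0.19 (edgeR adjusted p = 2.11e-07) and with plain totals by 1.77 ± 0.26, in 9 of 9 mice under both scalings. Btc was higher by 1.67 ± 0.16 (edgeR adjusted p = 7.05e-07) and 1.19 ± 0.20, and Hbegf by 1.38 ± 0.13 (adjusted p = 5.62e-07) and 0.89 ± 0.20. Egfr was lower in epithelium by -0.60 ± 0.13 (edgeR adjusted p = 0.00132) and with plain totals by -1.09 ± 0.17. These 4 were called with both scalings. Ereg differed by -0.25 ± 0.16 with TMM (edgeR adjusted p = 0.196, lower in 7 of 9 mice) and was called lower in epithelium with plain totals (-0.73 ± 0.19, adjusted p = 0.00473, 9 of 9 mice). Thus Ereg RNA was recovered from whole lung libraries at a level at least as high as from epithelial ones in most mice, while Areg was higher in the epithelial library of every mouse. Tgfa, Erbb2 and Erbb3 were called higher with TMM (0.65, 0.88 and 0.76) and not with plain totals (0.16, 0.38 and 0.28).

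Of the 9 genes tested in bleomycin control mice, 6 were called higher and 1 lower with TMM, where 60.8% of 15624 genes were called, 30.5% higher and 30.3% lower. With plain totals 3 were higher and 2 lower, where 12.5% were higher and 47.9% lower.

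**Figure D4:**
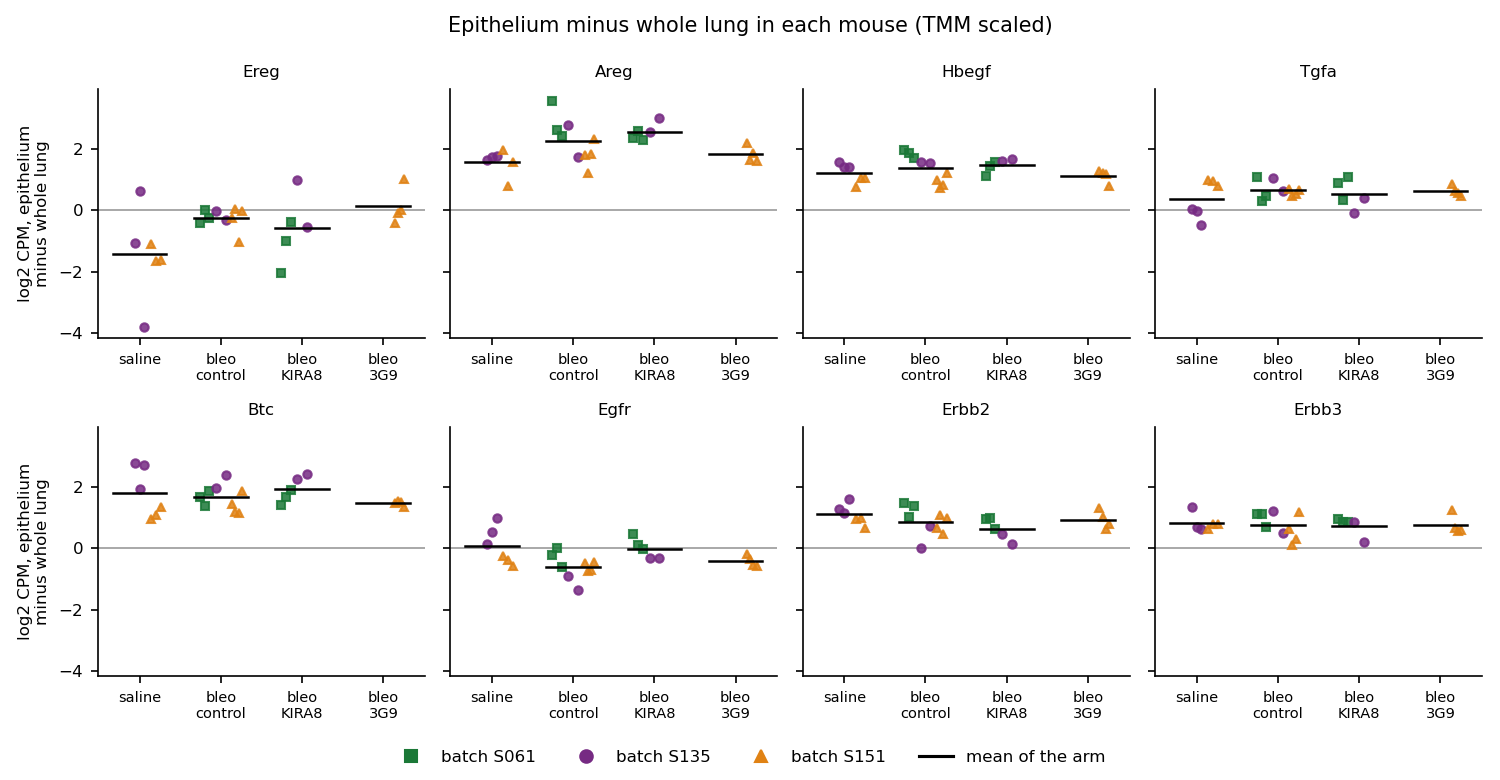
Difference of log2 CPM (prior count 2, TMM scaled) between the epithelial and the whole lung library of each mouse for 8 genes, by arm; symbols give the batch, the bar is the mean of the arm and the line at 0 marks equal levels. Areg, Hbegf and Btc lie above 0 in every mouse, and Egfr lies below 0 in 8 of 9 bleomycin control mice; plain library totals would lower the points as a whole.

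None of the tested differences of response between compartments passed the adjusted threshold among the 10 genes. For bleomycin, a contrast that also proposed the genes, the epithelial log2 response of Ereg exceeded the whole lung one by 2.86 ± 0.89, that of Areg by 0.42 ± 0.25, and that of Egfr was lower by -0.79 ± 0.25. The Ereg value rests on saline epithelial libraries at or near 0 counts and is no bound: it was 5.47 without saline mouse 152 and 1.98 without saline mouse 153. In that fit 0 of 9 genes were called, beside 0.162% of all genes. For KIRA8, 0 of 10 were called by edgeR and 0.00548% of all genes. Egfr (0.62 ± 0.18, adjusted p = 0.212) was the 1 gene of the 10 with an unadjusted p under 0.05, and Ereg differed by -0.49 ± 0.42 (adjusted p = 0.687). For 3G9, 0 of 10 and 0% of all genes were called by edgeR. Unadjusted, 416 genes had a p under 0.05, and DESeq2 called 1 gene. DESeq2 called 0 of the 10 genes in the KIRA8 and 3G9 differences as well.

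Across the 24 epithelial libraries, with the mean of each batch removed, the levels of Ereg and Areg were set against all other tested genes as a description. Areg correlated most with Ereg among 17290 genes (Pearson r = 0.919). Ereg in turn correlated most with ENSMUSG00000050359 (r = 0.943) and ENSMUSG00000038508 (r = 0.927), with Areg at rank 6. Within the family Ereg correlated with Hbegf (r = 0.877), Epgn (r = 0.694) and Btc (r = 0.533), and the sign was negative for Erbb2 (r = -0.654), Erbb3 (r = -0.521) and Egfr (r = -0.388). Tgfa stood apart from Ereg (r = -0.214). The libraries share the saline to bleomycin difference and the TMM scaling, which enter all of these correlations.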

How the data were processed

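RNA was recovered with an anti-HA antibody and sequenced from transcript ends with the Lexogen QuantSeq Forward kit, per the labels' protocols. The authors deposited 1 table of raw read counts for 42548 Ensembl genes in 48 libraries of 24 mice. Reads were aligned with STAR 2.5.2b to GRCm38, per the submitters' processing notes, while no source used here names the counting program or gene annotation. Totals ran from 7163613 to 51797377 counts, so genes with few counts are less precise in the shallow libraries. Replicates are separate mice.

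Counts were tested with edgeR 4.0.16 (R 4.3.3; TMM scaling, filterByExpr, quasi-likelihood F test, Benjamini-Hochberg adjustment over all tested genes). Each compartment was fitted over all 4 arms with batch as a term, and epithelium against whole lung with the mouse as a block, since the labels give both libraries of a mouse the same mouse number. An adjusted p under 0.05 is a call. SE is the log2 fold change divided by the square root of F. DESeq2 1.42.0, other size factors, no low-count filter, the 2 arms alone, sex as a term, and leaving out batch S061 or each mouse were alternatives, and levels were also taken on totals without the 146 batch-limited genes. Plain library totals were added after seeing the data. The edgeR fit of KIRA8 against bleomycin control in the epithelium was also run on simulated counts with known fold changes. The other fits were not tested in this way. The outcome of that run is not given here, and no result rests on it.

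The 10 genes and all lists were chosen with earlier results of these data known. All 10 genes are named, with the genes most correlated with Ereg or Areg. The pathway and cell type lists were not used here, because only the 10 genes were paired with Ensembl IDs.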

Additional observations from a re-analysis of the deposited data

Results flagged for a closer look

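In each gene, compartment and arm with 4 to 10 libraries, the highest or lowest library was set against the others by its gap to the nearest one, as a share of the range (Dixon's criterion at 95%). Of 79 groups tested, 9 had a library that stood apart. Chance gives about 1 in 20 for like libraries. That rate does not hold here, since the groups pool batches that differ in level, and where the other libraries are all at 0 any count stands apart.

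KIRA8 mouse 20 of batch S061 stood apart 3 times. Its whole lung library held 14.1 CPM of Ereg where the next KIRA8 library held 3.77. Areg was at 197 CPM in its epithelium, with the next at 88.7, and at 38.7 CPM in its whole lung, with the next at 15.0. The epithelial Ereg level of the same mouse, 3.42 CPM, was not apart from the other KIRA8 libraries.

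Among saline mice of batch S135, mouse 152 held the 2 Ereg counts of saline epithelium (0.167 CPM, the other 5 libraries at 0) and also the highest Egf level there, at 1.09 CPM. Mouse 153 held 0.934 CPM of Ereg in whole lung, where the next saline library held 0.158. The Hbegf level of 3G9 mouse 228 in whole lung was 75.2 CPM, with the next at 57.8. In KIRA8 epithelium, Egf was at 0.986 CPM in mouse 32 and at 0 in the other 4 libraries, and Epgn was at 0.985 CPM in mouse 41, with the next at 0.171.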

How the results depend on the processing

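Ereg and Hbegf were called higher in whole lung of bleomycin control mice under every alternative run, and the Areg call there was lost under the 4 alternatives named above. Bleomycin in the epithelium is the contrast that proposed the genes, so its count of calls is a description only. There the number of the 10 genes called was 6, and it fell to 3 with the 2 arms alone. It ran from 4 to 6 with 1 mouse left out. For KIRA8 in the epithelium it was 0, and 1 with plain totals, with DESeq2 and without the low-count filter, and 0 to 1 with 1 mouse left out. For KIRA8 in whole lung it was 0, and 1 with DESeq2, and 0 to 1 with 1 mouse left out. For epithelium against whole lung in saline mice it was 5, and 3 with plain totals. The cause of these changes was not tested.

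Several log2 differences that did not pass the test as reported turned their sign, and of the turned values Egfr between compartments in saline mice with plain totals was called. With plain totals these were Tgfa (-0.12) and Egfr (-0.12) under KIRA8 in the epithelium, Areg (-0.0599) and Hbegf (-0.0027) under 3G9 in the epithelium, and Tgfa (-0.41) and Egfr (-0.74) between compartments in saline mice. With the 2 arms alone they were Tgfa (-0.0044) and Btc (0.0305) under KIRA8 and Areg (-0.10) under 3G9 in the epithelium, and Hbegf under KIRA8 (0.0492) and Ereg under 3G9 (-0.16) in whole lung. Without batch S061 they were Egfr in epithelium (-0.36) and Erbb3 in whole lung (-0.019) under KIRA8, and Ereg in the difference of the KIRA8 response between compartments (0.57). Areg under 3G9 in the epithelium was also -0.0082 with DESeq2, -0.0095 with its size factors in edgeR, -0.010 without the filter and -0.0075 with sex as a term, with which Hbegf in whole lung was 0.0025. Egfr between compartments in saline mice was -0.029 with DESeq2, -0.0291 with its size factors and -0.0202 without the filter.

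With 1 mouse left out, the sign turned within these ranges. Under KIRA8 they were -0.13 to 0.038 for Erbb3 in the epithelium, and in whole lung -0.11 to 0.0358 for Hbegf, -0.0222 to 0.25 for Tgfa and -0.21 to 0.057 for Btc. Under 3G9 they were -0.14 to 0.13 for Areg, 0.0 to 0.48 for Ereg and -0.01 to 0.26 for Hbegf in the epithelium, and -0.23 to 0.25 for Areg, -0.12 to 0.0933 for Hbegf and -0.21 to 0.39 for Ereg in whole lung. Egf under bleomycin in whole lung ran from -0.17 to 0.44, and Egfr between compartments in saline mice from -0.14 to 0.14.

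The mouse as a replicate block changed no call of the 10 genes: without the pairing, Areg was higher in epithelium by 1.48 in saline and 2.24 in bleomycin control mice, and 5 and 7 genes were called.

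Over all genes the counts of calls moved further. KIRA8 in the epithelium gave 45 genes, and 243 with DESeq2, 161 with plain totals, 9 with the 2 arms alone and 2 without batch S061. In whole lung it gave 102, and 701, 20, 22 and 3 in the same order, 54 without the filter and 66 with sex. Bleomycin gave 1508 in the epithelium and 3622 with plain totals, and 1962 in whole lung and 2975 with DESeq2. For 3G9 in whole lung, 38 became 230 with DESeq2 and 0 with the 2 arms alone. The difference of the bleomycin response gave 29, and 185 with DESeq2, 130 with plain totals, 85 without the filter, 16 without batch S061 and 9 without the block. That of the KIRA8 response gave 1, and 200 with DESeq2 and 48 without the filter. Low counts limit Egf and Epgn in all libraries, and Ereg in saline mice and in KIRA8 mice of batch S135.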
